A study of Mus musculus with 24 samples.

Results

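The 10 genes described here encode proteins by which cells recognise and take up dead cells, cell debris and modified lipids. They were chosen by name as apoptotic cell and scavenger receptor genes, with a ligand and an adaptor among them, out of 24421 genes counted in each library: Cd36, Axl, Mertk, Tyro3, Gas6, Havcr2, Timd4, Msr1, Lrp1 and Dab2. Of these 10, 9 had enough counts to be tested and Tyro3 did not. Conventional dendritic cells (cDC) of the cDC1 and cDC2 subsets were sorted from digested spleens of untreated C57Bl/6 mice at 6 to 12 weeks of age, and their RNA was sequenced in 24 libraries. In the deletion line, 2 control libraries per subset came from Zeb2fl/fl mice and 4 from CD11cCRExZeb2fl/fl mice, in which Cre removes the floxed part of Zeb2. In the transgene line, 2 control libraries per subset came from R26-Zeb2Tg/Tg mice and 4 from CD11cCRExR26-Zeb2Tg/Tg mice, in which Cre switches on extra Zeb2 placed in Rosa26. All controls are Cre-negative littermates that carry the floxed or transgenic alleles, so no group is without them. The Cre follows CD11c, which both subsets and some macrophages express, and it is therefore not limited to 1 subset. The labels number the libraries of a group but do not say whether each is 1 mouse or a pool, so the spread that p-values rest on is that between libraries and may be technical.

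Dying cells expose phosphatidylserine on their surface. The receptor kinases Axl, Mertk and Tyro3 bind it through soluble bridging ligands such as Gas6, whereas the TIM family receptors Timd4 (Tim-4) and Havcr2 (Tim-3) bind it directly. Cd36 and Msr1 are scavenger receptors for oxidised lipids and apoptotic cells, Lrp1 is a very large endocytic receptor with many ligands, and Dab2 is a cytoplasmic adaptor that couples receptors of the Lrp1 family to clathrin. In the spleen, cDC1 are known to cross-present material from dead cells to CD8 T cells, and red pulp macrophages clear aged blood cells. Zeb2 encodes a zinc-finger transcription factor that is low in cDC1 and high in cDC2.

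Libraries held 21972763 to 36094786 counts in genes, so that 3 counts, taken as the floor, corresponded to 0.0869 to 0.148 CPM (counts scaled to a common library size). The floor covers counting error alone. Zeb2 itself checked the labels where Cre was to change it. Deletion took Zeb2 in cDC2 down by a log2 fold change of -2.11 (adjusted p = 5.13e-05), and the transgene took it up in cDC1 by 3.96 (adjusted p = 3.88e-07). These and all adjusted p-values below come from edgeR's quasi-likelihood test, adjusted by Benjamini-Hochberg. Zeb2 did not pass for the transgene in cDC2 (0.56, adjusted p = 0.618) or for the deletion in cDC1 (-0.31, adjusted p = 1.0), where it was low without Cre. The defining markers of each subset were present: the 8 cDC1 markers summed to at least 4091 CPM in any cDC1 library and at most 332 CPM in any cDC2 library. The 8 cDC2 markers summed to at least 2590 CPM in cDC2 and at most 324 CPM in cDC1.

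**Figure D1:**
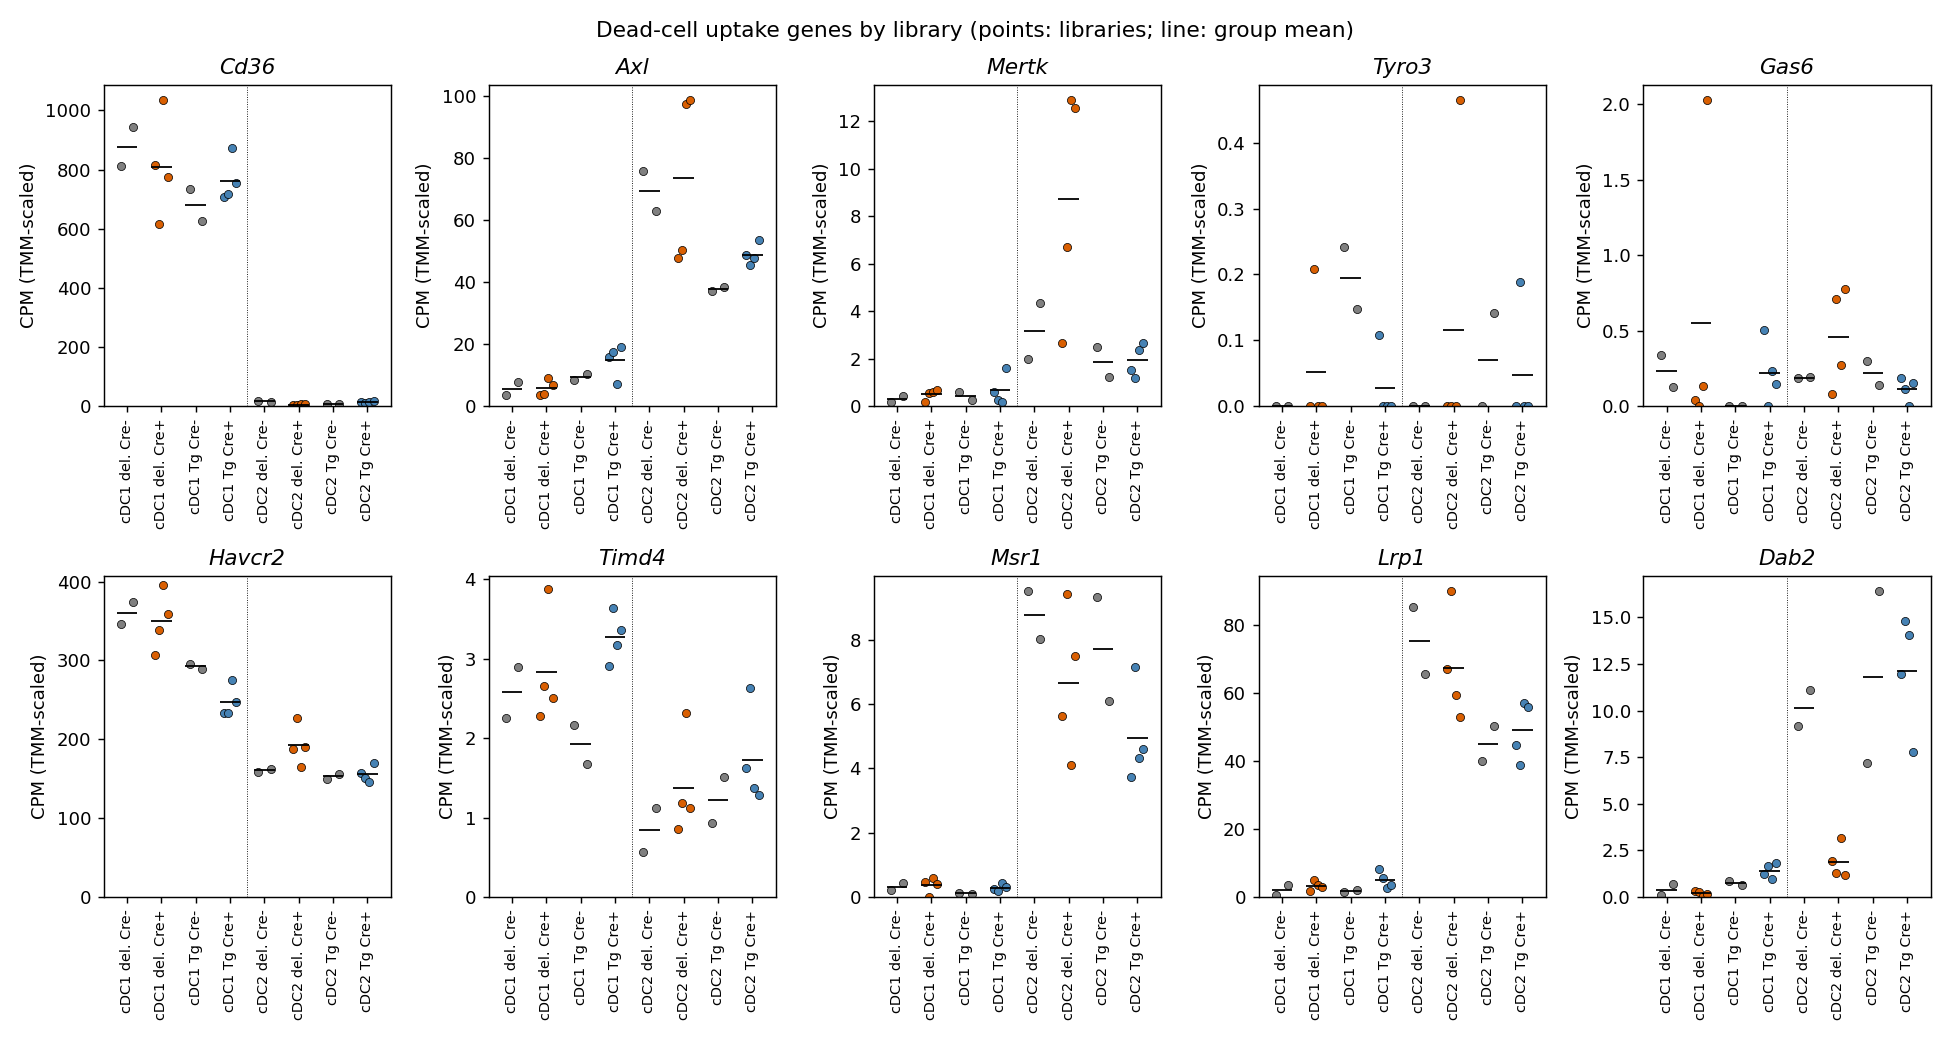
CPM (scaled by TMM, the trimmed mean of M-values) of the 10 genes in each of the 24 libraries, 1 panel per gene with its own scale. Points are libraries and lines are group means; del. is the deletion line, Tg the transgene line, grey points are Cre-negative controls, and the dotted line divides cDC1 from cDC2. Cd36 lies between 616 and 1034 CPM in all cDC1 libraries and between 3.29 and 17.5 CPM in all cDC2 libraries, while Axl, Msr1 and Lrp1 are on the cDC2 side.

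In GRCm38 (mm10), by the GENCODE M21 annotation, Cd36 spans chr5:17781690-17888801 and Dab2 chr15:6299788-6440712. Axl lies at chr7:25757273-25788705, Mertk at chr2:128698956-128802894, Tyro3 at chr2:119797733-119818104 and Gas6 at chr8:13465374-13494490. Havcr2 and Timd4 are neighbours on chromosome 11, at chr11:46454935-46481255 and chr11:46810800-46844332, and Msr1 and Lrp1 lie at chr8:39581685-39642673 and chr10:127538161-127621148. In that annotation none of the 10 shares exon bases with another gene.

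Levels were first compared between genes within each control subset, as CPM per kilobase of exon over the 4 control libraries of both lines. In control cDC1, Cd36 was the most abundant of the 10 at 220 ± 37.8 CPM per kb (SD, n = 4), followed by Havcr2 at 120 ± 14.9 CPM per kb, and the ranges of these genes did not overlap. Axl (1.75 ± 0.651) and Timd4 (1.04 ± 0.232) came next on this scale with overlapping ranges. The other 6 stood at means of 0.118 CPM per kb or less in cDC1, in the order Lrp1, Dab2, Mertk, Msr1, Gas6 and Tyro3, and each overlapped its neighbour.

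The order in control cDC2 was another one. Havcr2 led at 57.6 ± 1.91 CPM per kb (SD, n = 4), Axl followed at 12.5 ± 4.45, and both stood clear of every other gene. Lrp1 (3.69 ± 1.21), Cd36 (3.34 ± 1.52), Dab2 (2.1 ± 0.761) and Msr1 (2.06 ± 0.394) formed a run in which neighbours overlapped. Mertk (0.585 ± 0.308) and Timd4 (0.474 ± 0.183) overlapped each other below them, and Gas6 (0.0803 ± 0.0262) and Tyro3 (0.00730 ± 0.0146) were lowest.

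**Figure D2:**
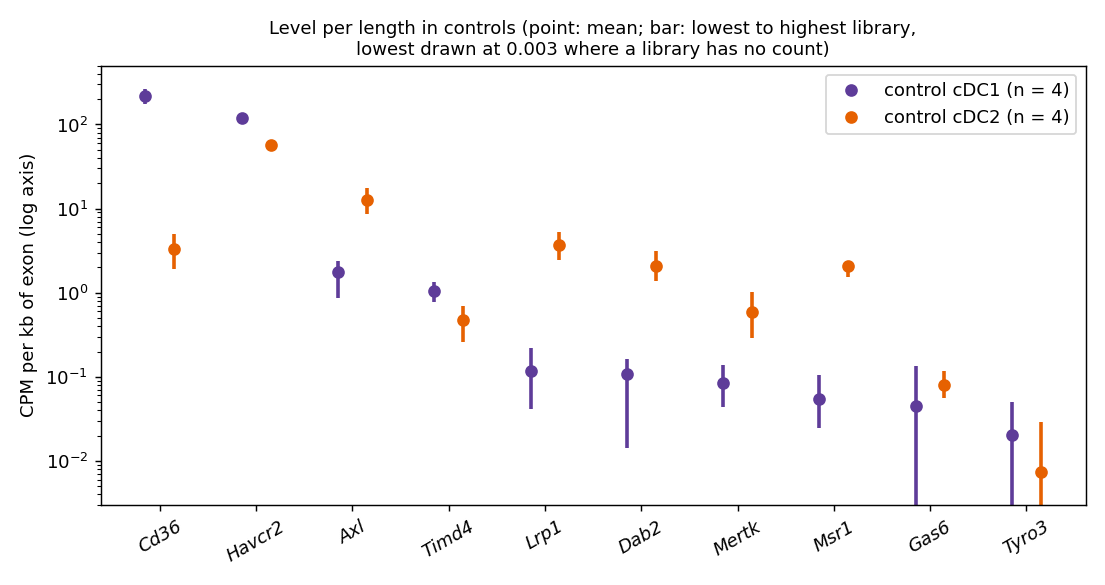
Level per kilobase of exon, on a log axis, of the 10 genes in the 4 control cDC1 and the 4 control cDC2 libraries. Points are means and bars run from the lowest to the highest library, drawn down to the edge at 0.003 where a library had no count. Cd36 falls from 220 CPM per kb in cDC1 to 3.34 in cDC2, and Havcr2 is within the top 2 of both subsets.

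The promoters of the pair of genes that changed with the deletion of Zeb2, Cd36 and Dab2, are shown here because factors of the Zeb family are known to bind E-box elements of the form CACCTG and its core CACCT. The 250 bases before the start site are RefSeq's (GRCm38.p6, the assembly of mm10), written in the direction of transcription. Capitals mark every match to the general E-box pattern CANNTG, which reads the same on both strands. The Cd36 window is chr5:17835897-17836146 on the minus strand, and it lies within the span the GENCODE annotation gives to the gene. Dab2 has RefSeq start sites with windows chr15:6299539-6299788 and chr15:6386498-6386747, both on the plus strand.
Cd36: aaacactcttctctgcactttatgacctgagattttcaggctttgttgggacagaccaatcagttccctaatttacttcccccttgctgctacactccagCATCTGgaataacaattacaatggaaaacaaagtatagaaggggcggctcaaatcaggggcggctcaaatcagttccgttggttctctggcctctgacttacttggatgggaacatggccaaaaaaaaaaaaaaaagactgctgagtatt
Dab2, start 1: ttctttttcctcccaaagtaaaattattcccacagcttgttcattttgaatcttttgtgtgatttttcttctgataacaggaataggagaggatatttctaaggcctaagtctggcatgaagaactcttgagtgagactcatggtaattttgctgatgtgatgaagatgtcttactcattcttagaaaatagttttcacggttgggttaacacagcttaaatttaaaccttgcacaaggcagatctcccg
Dab2, start 2: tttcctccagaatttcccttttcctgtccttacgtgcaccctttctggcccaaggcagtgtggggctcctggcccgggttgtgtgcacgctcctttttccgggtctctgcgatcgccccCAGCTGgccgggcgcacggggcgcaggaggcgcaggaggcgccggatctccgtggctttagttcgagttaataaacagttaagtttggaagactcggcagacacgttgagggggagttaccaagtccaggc

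The Cd36 window held 1 CANNTG match, CATCTG, 150 bases before the start, and the window of Dab2 start 2 held CAGCTG 131 bases before it. No CANNTG was found in the window of Dab2 start 1. RefSeq promoters were at hand for 9 of the 10 genes, Msr1 being the one without, and gave 10 windows. CACCTG, sought on both strands, was in 0 of the 10 windows and in 17.2% of 32851 promoter windows of the same length. The core CACCT, which any CACCTG contains, was on either strand in the windows of Tyro3 and Lrp1, 2 of 10, against 46.0% of all windows. CANNTG, which also covers CACCTG, was in 4 of 10 against 66.2%. These matches describe letters in a short window and say nothing of where a factor binds.

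Control cDC2 were set against control cDC1 to ask how the uptake genes divide between the subsets when Zeb2 is intact. Cd36, Havcr2 and Timd4 were lower in cDC2, and Axl, Mertk, Msr1, Lrp1 and Dab2 were higher. Of the 9 genes tested, 5 were higher and 3 lower, and 1, Gas6, did not pass, in a comparison where 53.4% of 13166 genes passed (27.6% higher and 25.8% lower). The same 8 genes had no overlap between the 4 libraries of each subset, as had 45.9% of all genes tested. In sorted bulk samples, a smaller share of cells with a gene and less of its RNA per cell cannot be told apart.

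Among the scavenger receptors, Cd36 stood at 811, 944, 734 and 626 CPM in control cDC1 (deletion line first, then transgene line) and at 17.5, 15.2, 7.77 and 6.73 CPM in control cDC2. It was thus 70.9-fold lower in cDC2 (log2 fold change -6.15, SE 0.18, adjusted p = 9.71e-18). Msr1, the class A scavenger receptor, ran the other way, at 0.225, 0.420, 0.121 and 0.0985 CPM in control cDC1 and at 9.52, 8.03, 9.34 and 6.10 CPM in control cDC2. The cDC1 values of Msr1 rest on 21 counts in all, some near the floor, and its log2 fold change of 5.41 passed (SE 0.49, adjusted p = 2.51e-09). The endocytic receptor Lrp1 stood at 0.676, 3.61, 1.41 and 2.02 CPM in control cDC1 and at 85.2, 65.5, 39.8 and 50.1 CPM in control cDC2 (log2 fold change 4.94, SE 0.39, adjusted p = 1.96e-10). Its adaptor Dab2 stood at 0.0751, 0.672, 0.844 and 0.640 CPM in control cDC1 and at 9.18, 11.1, 7.17 and 16.4 CPM in control cDC2, 20.8-fold higher (log2 fold change 4.38, SE 0.44, adjusted p = 1.14e-08). No cDC1 library reached the lowest cDC2 library for Msr1, Lrp1 or Dab2.

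Of the receptor kinases, Axl stood at 3.68, 7.65, 8.32 and 10.3 CPM in control cDC1 and at 75.9, 62.9, 37.1 and 38.4 CPM in control cDC2, 7.06-fold higher (log2 fold change 2.82, SE 0.31, adjusted p = 6.35e-08). Mertk was far scarcer, at 0.188, 0.420, 0.603 and 0.246 CPM in cDC1 and at 1.98, 4.34, 2.50 and 1.23 CPM in cDC2 (log2 fold change 2.73, SE 0.62, adjusted p = 0.000704). Tyro3 had 9 counts in all 4 control cDC1 libraries and 4 in control cDC2 (two-sided exact permutation test, p = 0.429, smallest possible 0.0286). The ligand Gas6 was scarce too, though less so than Tyro3, with 12 counts in control cDC1 and 22 in control cDC2 (adjusted p = 0.209).

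Both TIM receptors leaned to cDC1, but by less than Cd36 did. Havcr2 stood at 346, 374, 296 and 289 CPM in control cDC1 and at 159, 162, 149.7 and 156 CPM in control cDC2, 2.07-fold lower (log2 fold change -1.05, SE 0.09, adjusted p = 1.01e-09). Timd4 stood at 2.25, 2.90, 2.17 and 1.67 CPM in control cDC1 and at 0.560, 1.11, 0.934 and 1.52 CPM in control cDC2 (log2 fold change -1.13, SE 0.33, adjusted p = 0.00615). Within the transgene line alone, with 2 libraries against 2 and 1.52 CPM next to 1.67 CPM, Timd4 did not pass (adjusted p = 0.281), nor did Mertk (adjusted p = 0.0559).

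**Figure D3:**
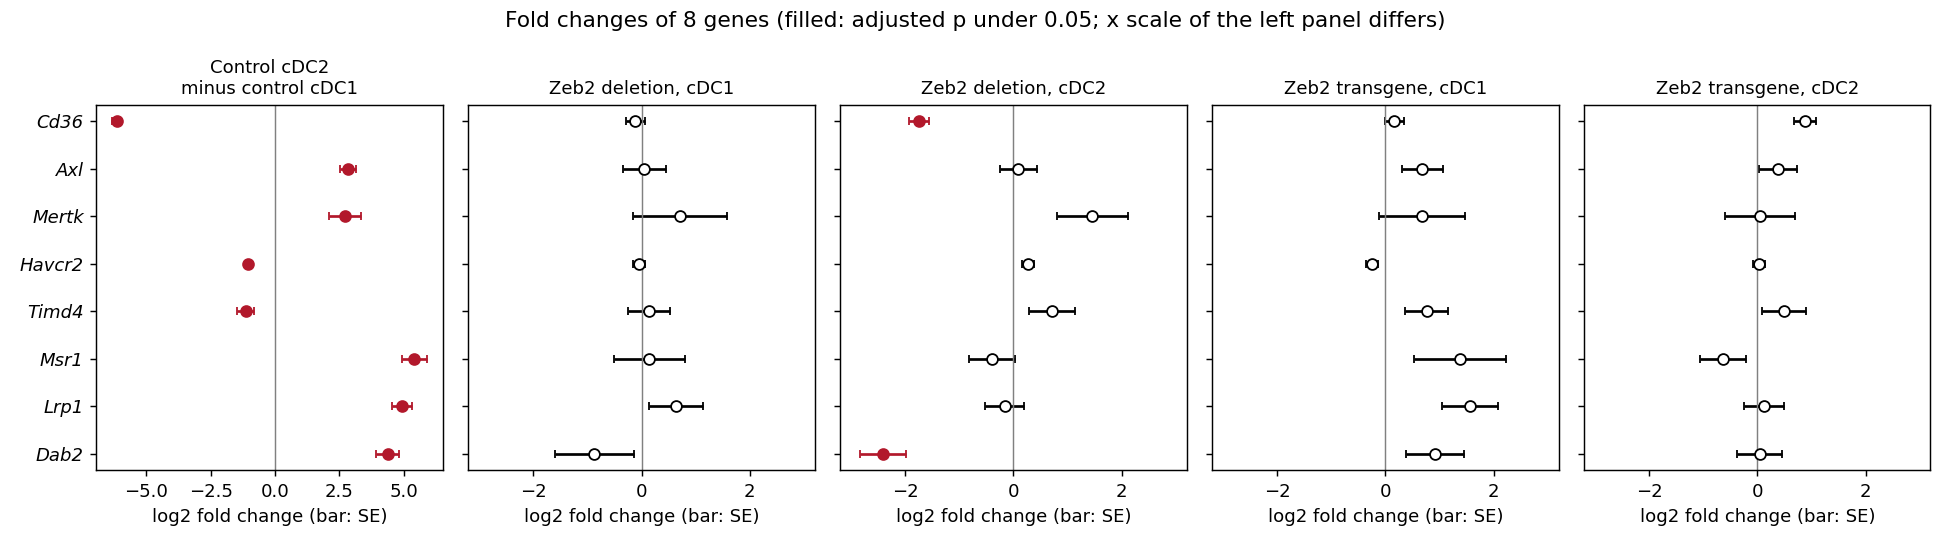
Log2 fold changes of 8 of the 9 genes tested (Gas6, with few counts, is left out), with bars of 1 standard error, in 5 comparisons. Filled points have an adjusted p under 0.05, and the left panel has a wider axis. All 8 are filled between the control subsets, only Cd36 and Dab2 in cDC2 with the deletion, and none in the other 3 panels.

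Deletion of Zeb2 in cDC2 went with lower Cd36, the scavenger receptor, and lower Dab2, the endocytic adaptor, and with no passing change in the other genes. Of the 9 tested, 2 were lower and 0 higher, where 5.21% of all genes passed (2.88% lower and 2.33% higher). Cd36 stood at 17.5 and 15.2 CPM in the controls and at 4.85, 3.29, 5.65 and 5.65 CPM in the Cre-positive libraries. All Cre-positive libraries lay below both controls, and also below the 7.77 and 6.73 CPM of the transgene line's controls. The mean was 4.86 ± 1.11 CPM (SD, n = 4) against 16.4 ± 1.62 (SD, n = 2), a 3.36-fold fall (log2 fold change -1.75, SE 0.19, adjusted p = 3.78e-06). Dab2 stood at 9.18 and 11.1 CPM in the controls and at 1.90, 1.31, 3.17 and 1.20 CPM in the Cre-positive libraries, 1.89 ± 0.906 (SD, n = 4) against 10.1 ± 1.36 CPM (SD, n = 2). The groups did not overlap, and the fall was 5.34-fold (log2 fold change -2.42, SE 0.42, adjusted p = 0.00109). Both calls held when any library of the comparison was left out.

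The 2 genes that fell lie on opposite sides of the difference between the subsets. Cd36 is higher in cDC1, and its level in cDC2 went from 1.86% of the cDC1 level in the controls to 0.600% with the deletion. Dab2 is higher in cDC2, and its 1.20 to 3.17 CPM in Cre-positive cDC2 were still above the 0.0441 to 0.305 CPM of Cre-positive cDC1 in the same line.

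Other markers moved in the same cDC2 libraries. Of the 8 cDC1 markers, 2 were lower, the dead-cell receptor Clec9a and the adhesion molecule Cadm1, 1 was higher, the RNA sensor Tlr3, and 5 did not pass. The markers shown with values were chosen after the values were seen. Clec9a went from 17.6 and 11.9 CPM to 2.95, 1.27, 3.21 and 3.33 CPM (log2 fold change -2.45, adjusted p = 1.16e-06), and Cadm1 from 27.6 and 30.8 CPM to 6.40, 9.34, 13.1 and 14.3 CPM (-1.44, adjusted p = 0.000168). Xcr1, a chemokine receptor that defines cDC1, stood at 3.55 and 6.73 CPM in the controls and at 4.26, 6.02, 5.26 and 5.88 CPM with the deletion, which overlap (0.06, adjusted p = 0.912). The mean of Tlr3 went from 5.65 to 9.70 CPM, and those of Itgae (0.114 to 0.791 CPM) and Batf3 (37.7 to 50.9 CPM), which did not pass, were also higher with the deletion. Those of Irf8 (103 to 75.9 CPM) and Cd8a (7.00 to 3.56 CPM), which did not pass either, were lower. Relative to its cDC1 level, Xcr1 in cDC2 was at 0.518% in the controls and 0.543% with the deletion, Clec9a at 5.53% and 1.12%, and Cadm1 at 4.40% and 1.96%. The 8 cDC1 markers together summed to 189 to 216 CPM in the controls and to 146 to 175 CPM with the deletion, with none at 0. The part of these markers in the Cd36 values was not tested.

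**Figure D4:**
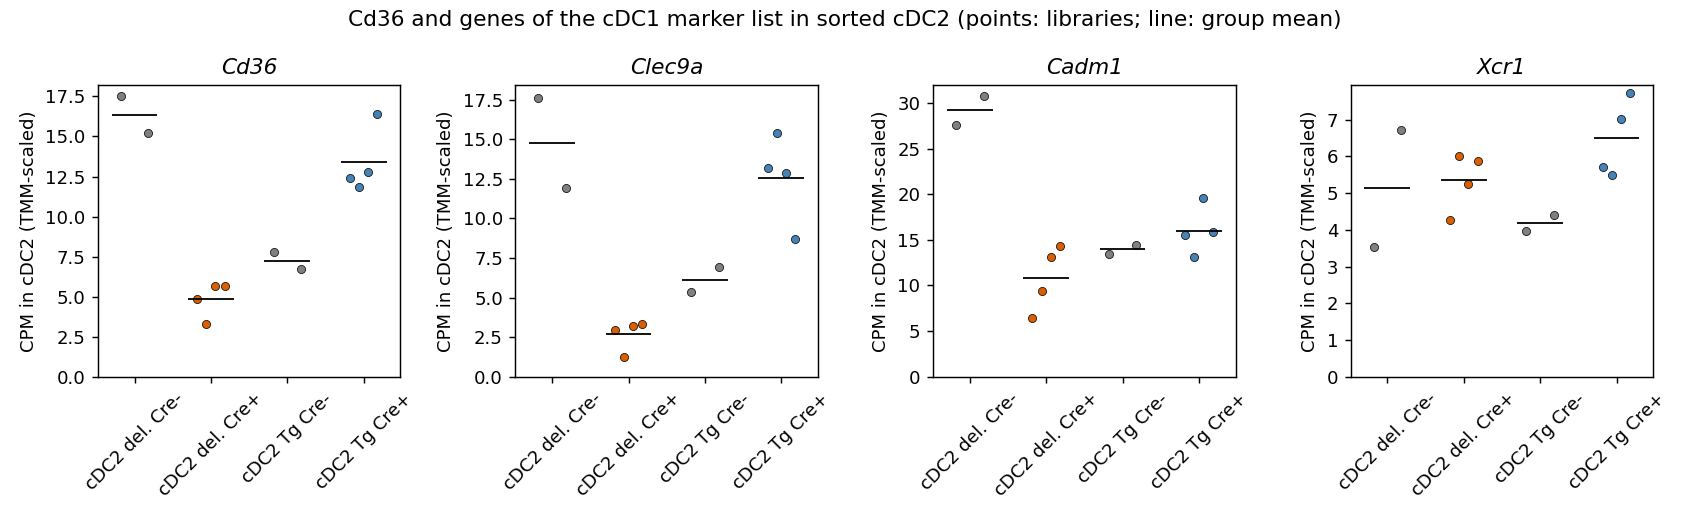
CPM of Cd36 and of the cDC1 markers Clec9a, Cadm1 and Xcr1 in the 12 cDC2 libraries, by line and Cre. Points are libraries and lines are group means; del. is the deletion line and Tg the transgene line. Cd36, Clec9a and Cadm1 are each lower in all 4 Cre-positive libraries of the deletion line than in both controls, and Xcr1 overlaps between those groups.

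Of the markers of other cell types, 4 of 8 monocyte markers (Lyz2, Csf1r, Cx3cr1 and Ccr2) fell in cDC2 with the deletion. Their list summed to 2926 to 3681 CPM in the controls and 1034 to 1272 CPM with Cre, with none at 0. Of the 3 marginal zone macrophage markers 1 fell, Cd209b, with sums of 17.0 to 24.5 CPM in the controls and 6.89 to 12.6 CPM with Cre. The 6 platelet and megakaryocyte markers summed to 46.2 to 50.0 CPM and 26.5 to 40.4 CPM, and none of them passed. The sum of the 6 B cell markers was higher with Cre, from 57.5 to 71.5 CPM in the controls to 195 to 252 CPM. That rise lay in Ms4a1, the 1 of 5 tested that passed, while Cd79a and Cd79b did not pass. The part of these lists in the Cd36 and Dab2 results was not tested.

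The receptor kinases showed a division among the Cre-positive cDC2 libraries. Axl stood at 75.9 and 62.9 CPM in the controls and at 47.7, 50.5, 97.5 and 98.9 CPM with the deletion, so that replicates 1 and 2 lay below both controls and replicates 3 and 4 above both (log2 fold change 0.09, SE 0.34, adjusted p = 0.934). Mertk stood at 1.98 and 4.34 CPM in the controls and at 2.67, 6.69, 12.9 and 12.5 CPM with the deletion (1.46, SE 0.66, adjusted p = 0.240), again highest in replicates 3 and 4. The 11 red pulp macrophage markers summed to 596 and 626 CPM in the controls and to 492, 748, 904 and 832 CPM in the Cre-positive replicates 1 to 4, none at 0, and 1 of the 11, the iron exporter Slc40a1, passed as higher. The complement gene C1qa, made by macrophages, stood at 37.0 and 37.2 CPM in the controls and at 28.2, 33.5, 64.7 and 54.4 CPM with the deletion. The mean of Slc40a1 went from 34.9 to 133 CPM, the largest rise in CPM of the list. The means of C1qb (51.1 to 50.7 CPM), Adgre1 (329 to 316 CPM) and Cd163 (4.73 to 3.51 CPM) were lower with the deletion, and those of the rest of the list higher. Without replicates 3 and 4, a choice made after the values were seen, the log2 fold change of Axl was -0.50. As these hold the highest Axl, leaving them out lowers it by the choice itself and says nothing of the markers. The part of these markers in the Axl and Mertk values was not tested.

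**Figure D5:**
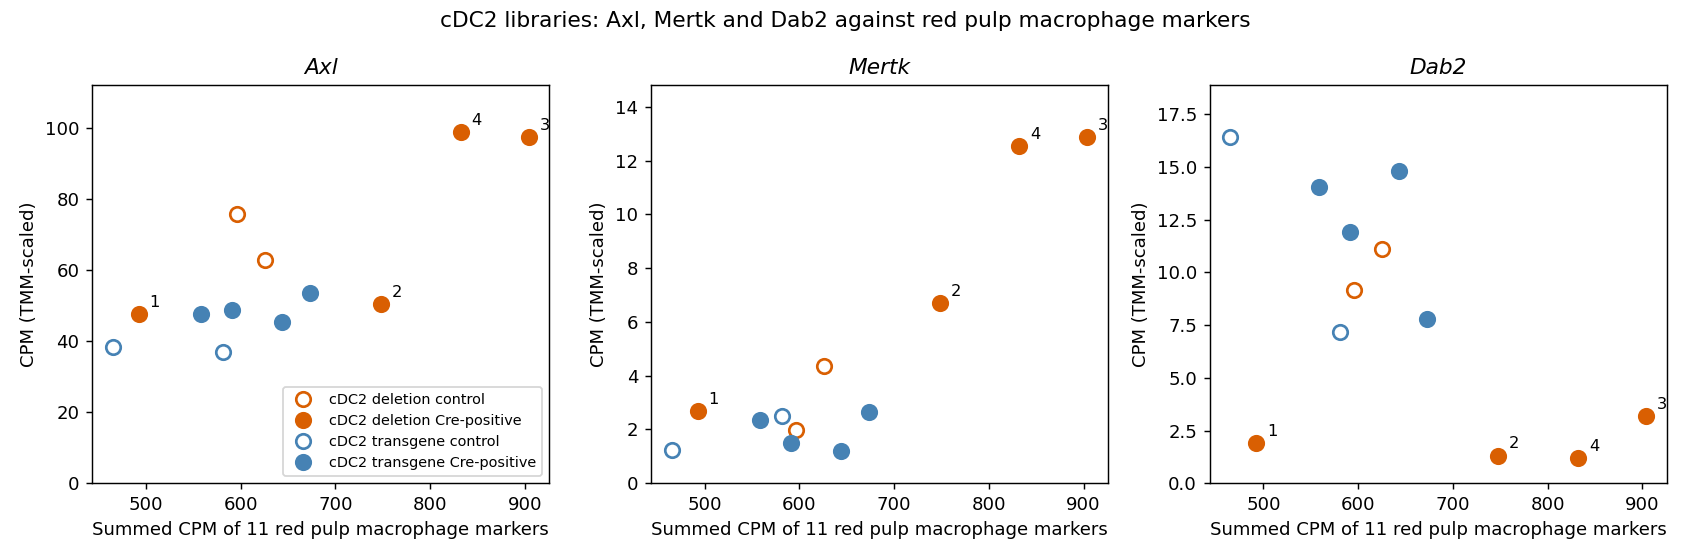
CPM of Axl, Mertk and Dab2 in each of the 12 cDC2 libraries against the summed CPM of 11 red pulp macrophage markers in the same library. Open circles are controls, filled circles Cre-positive libraries, orange the deletion line and blue the transgene line, with replicate numbers beside the Cre-positive libraries of the deletion line. Replicates 3 and 4 have the highest marker sums, 904 and 832 CPM, and the highest Axl and Mertk, while Dab2 is low in all 4.

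The remaining genes did not pass in cDC2 with the deletion. Havcr2 stood at 159 and 162 CPM in the controls and at 188, 227, 165 and 189.8 CPM with Cre, without overlap but with a small difference (log2 fold change 0.26, SE 0.11, adjusted p = 0.201). Groups did not overlap for 3 of the 9 genes, Cd36, Dab2 and Havcr2, and for 27.1% of all genes tested. Lrp1 stood at 85.2 and 65.5 CPM in the controls and at 67.1, 89.96, 59.2 and 52.8 CPM with Cre (log2 fold change -0.16, SE 0.36, adjusted p = 0.876). The levels of Lrp1 overlapped in the libraries in which its adaptor Dab2 fell. Msr1 gave a log2 fold change of -0.40 (SE 0.42, adjusted p = 0.694) and Timd4 of 0.71 (SE 0.43, adjusted p = 0.415), both with overlapping groups. Gas6 had 5 and 5 counts in the controls and 2, 18, 7 and 20 with Cre, and Tyro3 had counts in 1 of the 6 libraries.

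In cDC1 with the deletion, none of the 9 genes passed, in a comparison in which 3 genes in all, 0.0228%, did. With the same edgeR test, 0 of the 9 had an unadjusted p under 0.05, beside 633 of 13166 genes, and DESeq2 called 0 as well. Cd36 stood at 811 and 944 CPM in the controls and at 816, 616, 1034 and 774 CPM with Cre, which overlapped (log2 fold change -0.12, SE 0.17, adjusted p = 0.999). Dab2, near the floor in this subset, stood at 0.0751 and 0.672 CPM in the controls and at 0.305, 0.250, 0.0441 and 0.172 CPM with Cre (-0.87, adjusted p = 0.996). Havcr2 stood at 346 and 374 CPM in the controls and at 307, 339, 395 and 359 CPM with Cre. Axl stood at 3.68 and 7.65 CPM and at 3.69, 3.99, 9.04 and 6.68 CPM, and Lrp1 at 0.676 and 3.61 CPM and at 1.64, 5.07, 3.35 and 3.02 CPM. The groups overlapped for each of these and for the other genes tested, 9 in all, whereas 11.7% of all genes did not overlap. Gas6 had 9 and 3 counts in the controls and 1, 0, 3 and 47 with Cre.

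The difference of the deletion's effect between the subsets (cDC2 minus cDC1) was tested as an interaction. There was little Zeb2 to lose in cDC1, with means of 1.53 CPM in the controls and 1.22 CPM with Cre, beside 154 and 35.8 CPM in cDC2. Cd36 passed, with a log2 difference of -1.63 (SE 0.26, adjusted p = 0.00222), 1 of the 9 genes in a test that 1.08% of all genes passed. Dab2, which fell in cDC2, had a log2 difference of -1.55 (SE 0.88, adjusted p = 0.457), with 19 counts in the 4 Cre-positive cDC1 libraries to set against. The deletion's effect on Dab2 was therefore not shown to differ between the subsets. The interaction was 0.30 for Havcr2 (SE 0.15, adjusted p = 0.396) and -0.79 for Lrp1 (SE 0.62, adjusted p = 0.629).

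The transgene asked the reverse question in cDC1, where Zeb2 is normally low. None of the 9 genes passed, although 7.00% of all genes did. With edgeR, 2 of the 9 had an unadjusted p under 0.05, beside 2599 of 13166 genes, and DESeq2 called 1 of the 2, Lrp1. Lrp1 stood at 1.41 and 2.02 CPM in the controls and at 8.34, 5.55, 2.68 and 3.62 CPM with the transgene. All Cre-positive libraries were above both controls of this line, and the 0.676 and 3.61 CPM of the deletion line's cDC1 controls span the lower part of that range. For Lrp1 the log2 fold change came to 1.57 (SE 0.51, adjusted p = 0.0694). It passed with DESeq2 (1.55, adjusted p = 0.0345), without the filter on low counts (1.58, adjusted p = 0.0429) and without Cre-positive replicate 3 (1.77, adjusted p = 0.0363). In the other 10 of 13 alternative fits Lrp1 did not pass.

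Havcr2 stood at 296 and 289 CPM in the cDC1 controls and at 233, 233, 275 and 248 CPM with the transgene (log2 fold change -0.24, SE 0.11, adjusted p = 0.204). Timd4 stood at 2.17 and 1.67 CPM and at 2.91, 3.64, 3.18 and 3.36 CPM (0.76, SE 0.40, adjusted p = 0.302), and Dab2 at 0.844 and 0.640 CPM and at 1.22, 1.65, 0.969 and 1.80 CPM (0.92, SE 0.54, adjusted p = 0.376). Groups did not overlap for 5 of the 9 genes, Lrp1, Havcr2, Timd4, Dab2 and Msr1, and for 25.2% of all genes. Cd36 did overlap, at 734 and 626 CPM against 707, 716, 873 and 755 CPM (0.17, SE 0.17, adjusted p = 0.660), and so did Axl, at 8.32 and 10.3 CPM against 15.9, 17.4, 7.02 and 19.1 CPM (0.68, SE 0.38, adjusted p = 0.344). Axl was lowest in replicate 3, which also had the lowest Lrp1. Msr1, with means of 0.1095 CPM in the controls and 0.292 CPM with the transgene, gave 1.37 (SE 0.85, adjusted p = 0.398), and Mertk gave 0.68 (SE 0.80, adjusted p = 0.704). Gas6 had no count in either control and 14, 0, 6 and 5 counts with the transgene (adjusted p = 0.270). Tyro3 had 6 and 3 counts in the controls and 3, 0, 0 and 0 with the transgene (two-sided exact permutation test, p = 0.0667, the smallest that 4 against 2 libraries allow).

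Markers of several cell types moved in these cDC1 libraries. The 8 cDC2 markers summed to 39.7 and 40.3 CPM in the controls and to 324, 302, 189 and 124 CPM in the Cre-positive replicates 1 to 4, and 7 of the 8 passed as higher, with at most 1 at 0 in a library. The 11 red pulp macrophage markers summed to 175 and 209 CPM and to 500.3, 481, 266 and 396 CPM, and 3 of them, Adgre1, Hmox1 and Spic, passed as higher, with none at 0. Replicates 1 and 2 hold the highest sums of both lists and the highest Lrp1. Of the 8 cDC1 markers 4 passed as lower (Irf8, Tlr3, Itgae and Cd8a) and 0 as higher, with sums of 6858 to 8349 CPM in the controls and 4091 to 5514 CPM with the transgene, none at 0. Of 4 endothelial markers tested, 2 passed as higher (Kdr and Pecam1), and the 6 listed summed to 41.5 to 42.5 CPM and 64.9 to 68.3 CPM, with at most 2 at 0 in a library. Of 6 plasmacytoid dendritic cell markers 2 passed as lower (Ccr9 and Pacsin1), with sums of 105.7 to 107 CPM and 67.5 to 82.6 CPM and at most 1 at 0. The monocyte marker Csf1r, 1 of 8, passed as higher, and the B cell marker Ms4a1, 1 of 5 tested, as lower. Replicates 1 and 2 were also left out, a choice made after the values were seen. The log2 fold change was then 0.91 for Lrp1 (adjusted p = 0.400) and 0.51 for Axl (adjusted p = 0.619). As replicates 1 and 2 hold the highest Lrp1, leaving them out lowers its value by the choice itself and says nothing of the markers. The part of these markers in the Lrp1 and Axl values was not tested.

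In cDC2 with the transgene, Zeb2 itself did not pass, and neither did any of the 9 genes, while 0.327% of all genes passed. Zeb2 stood at 104.0 and 103.6 CPM in the controls and at 151, 152, 148 and 159 CPM with Cre, without overlap. With edgeR, 1 of the 9, Cd36, had an unadjusted p under 0.05, beside 1144 of 13166 genes, and DESeq2 called that 1. Cd36 stood at 7.77 and 6.73 CPM in the controls and at 12.4, 11.8, 12.8 and 16.4 CPM with the transgene, without overlap. The means were 7.25 ± 0.735 (SD, n = 2) and 13.4 ± 2.07 CPM (SD, n = 4), with a log2 fold change of 0.88 (SE 0.20, adjusted p = 0.0587). It passed with DESeq2 (0.89, adjusted p = 0.00208) and without the filter on low counts (0.89, adjusted p = 0.0236). It also passed with a block on replicate number, a pairing that the labels do not give. In the other 9 of 12 alternative fits Cd36 did not pass. Of these Cre-positive libraries, 1, at 16.4 CPM, lay between the 17.5 and 15.2 CPM of the deletion line's controls and the others below both. In the same cDC2 libraries the 8 cDC1 markers summed to 160 to 208 CPM in the controls and 185 to 332 CPM with the transgene, none passing and none at 0, and their part in the Cd36 values was not tested.

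Axl was the other of the 9 genes without overlap in cDC2 with the transgene, at 37.1 and 38.4 CPM in the controls and at 48.7, 45.5, 47.6 and 53.5 CPM with Cre (log2 fold change 0.37, SE 0.35, adjusted p = 0.845). These made 2 of the 9 genes, beside 20.9% of all genes tested. Dab2, which fell with the deletion, stood at 7.17 and 16.4 CPM in the controls and at 11.9, 14.8, 14.1 and 7.78 CPM with the transgene (0.04, SE 0.42, adjusted p = 0.997), with all Cre-positive libraries between the controls. Msr1 gave -0.64 (SE 0.42, adjusted p = 0.729) and Timd4 0.49 (SE 0.41, adjusted p = 0.818), both with overlap. Havcr2, at 149.7 and 156 CPM in the controls and 157, 151, 146 and 171 CPM with Cre, and Lrp1, at 39.8 and 50.1 CPM and 44.7, 38.7, 56.9 and 55.7 CPM, overlapped as well. Mertk stood at 2.50 and 1.23 CPM and at 1.51, 1.20, 2.36 and 2.64 CPM, and Gas6 had 8 and 4 counts in the controls and 5, 3, 0 and 4 with Cre. In the interaction of the transgene's effect with subset, none of the 9 genes passed while 2.01% of all genes did, and DESeq2 called 0. With edgeR, 3 of the 9 had an unadjusted p under 0.05, beside 1717 of 13166 genes. The log2 difference was 0.72 for Cd36 (SE 0.26, adjusted p = 0.198), -1.44 for Lrp1 (SE 0.63, adjusted p = 0.321) and -2.01 for Msr1 (SE 0.94, adjusted p = 0.365). It was 0.27 for Havcr2 (SE 0.16, adjusted p = 0.486) and -0.88 for Dab2 (SE 0.68, adjusted p = 0.646). With a block on replicate number, Cd36 passed in this interaction (edgeR, adjusted p = 0.0348), but not in the other 18 of 19 alternative fits.

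The controls of the lines differed for Cd36 in cDC2, which bears on each comparison above that sets libraries of 1 line beside the other. Cd36 was 2.26-fold lower in the cDC2 controls of the transgene line, at 7.77 and 6.73 CPM, than in those of the deletion line, at 17.5 and 15.2 CPM (log2 fold change -1.17, SE 0.22, adjusted p = 0.0254). This was 1 of the 9 genes in a comparison that 0.137% of all genes passed, and the call was lost when any 1 of the 4 control libraries was left out (adjusted p = 0.0679 to 0.289). Of the 9 genes, 4 (Cd36, Axl, Havcr2 and Lrp1) did not overlap between those controls, beside 40.7% of all genes. Axl gave -0.88 (SE 0.40, adjusted p = 0.521) and Lrp1 -0.74 (SE 0.43, adjusted p = 0.631) in the same comparison. In cDC1, none of the 9 genes passed between the lines' controls, with 0.129% of all genes passing, and DESeq2 called 0. With edgeR, 1 of the 9, Havcr2, had an unadjusted p under 0.05, beside 948 of 13166 genes. Without overlap were 6 of the 9 (Cd36, Axl, Gas6, Havcr2, Timd4 and Msr1), beside 34.2% of all genes, with 2 libraries on each side. The log2 fold changes there were -0.37 for Cd36 (SE 0.20, adjusted p = 0.737) and -0.30 for Havcr2 (SE 0.13, adjusted p = 0.622).

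Other genes of dead-cell uptake were taken as 5 lists of 62 names in all, of which 53 were tested. Between the control subsets, 30 were higher and 10 lower in cDC2, where 27.6% and 25.8% of all genes tested were. Their median log2 fold change was 0.89 beside 0.05 over all genes. Of the 8 bridging molecules, 6 were higher and 2 lower, among them the TAM ligand Pros1 (log2 fold change 2.96, adjusted p = 2.91e-08), and Anxa1 (-1.80, adjusted p = 1.57e-13) and Lgals3 (-1.98, adjusted p = 3.76e-10), which bind phospholipids and glycans respectively. Of 13 other dead-cell receptors tested, 6 were higher and 2 lower, with the phosphatidylserine-binding receptors Cd300lf (4.93, adjusted p = 6.97e-15) and Cd300lb (6.89, adjusted p = 5.91e-12) higher and Clec9a (-4.79, adjusted p = 7.03e-15) lower. Of 10 other scavenger receptors tested, 4 were higher and 2 lower, led by the lipoprotein receptor Lrp8 (4.45, adjusted p = 4.43e-13). Of 13 genes of engulfment and digestion, 8 were higher and 2 lower, with Elmo1 (1.00, adjusted p = 6.54e-11), which works with Dock exchange factors, and the GTPase Rac2 (1.03, adjusted p = 8.37e-10) higher. Of 9 don't-eat-me and find-me genes, 6 were higher and 2 lower, including the fractalkine receptor Cx3cr1 (6.30, adjusted p = 5.33e-14).

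With the deletion in cDC2, 2 of these 53 genes were higher and 3 lower, where 2.33% and 2.88% of all genes tested were. Their median log2 fold change was -0.13 beside 0.01 over all genes. Clec9a, Cx3cr1 (-2.1, adjusted p = 2.91e-05) and the high-density lipoprotein receptor Scarb1 (-0.56, adjusted p = 0.00322) fell, and Anxa1 (0.63, adjusted p = 0.00168) and the don't-eat-me ligand Cd47 (0.38, adjusted p = 0.00517) rose. None of the 13 engulfment and digestion genes and none of the 10 other scavenger receptors passed there. In cDC1 with the deletion, 0 of the 53 passed, where 0.0228% of all genes did.

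With the transgene in cDC1, 8 of the 53 were higher and 1 lower (median log2 fold change 0.02, the same as over all genes). Of all genes tested, 7.00% passed there in either direction. The receptor for Cd47, Sirpa (3.44, adjusted p = 2.61e-05), Cd300lf (2.23, adjusted p = 1.12e-05), Cd300lb (2.70, adjusted p = 0.0259) and the lysosomal scavenger receptor Cd68 (0.60, adjusted p = 8.55e-05) rose, and Anxa1 fell (-0.99, adjusted p = 1.47e-06). Sirpa is also among the cDC2 markers above. In cDC2 with the transgene, 1 of the 53, Anxa1, passed and was lower (-0.72, adjusted p = 0.00141), where 0.327% of all genes passed.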

How the data were processed

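Sorted cDC1 and cDC2 gave RNA that was amplified with the SMART-Seq v4 kit and read on a NextSeq500, per the labels' protocols. Per the submitters' processing notes, FastQC 0.11.4, Trimmomatic 0.35, TopHat2 2.1.0 and SAMtools 0.1.18 were used with mm10. The authors deposited whole-number read counts for each gene symbol, unscaled. How reads were counted, with which annotation and strand setting, is not given in the sources consulted. In each file 5 lines name no gene and were left out, with 10.4 to 15.7% of reads in no feature and 0.970 to 1.09% ambiguous.

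The counts were fitted with edgeR 4.0.16 in R 4.3.3. The filterByExpr function, at a minimum count of 10 and total of 15, left 13166 genes, and TMM factors ran from 0.925 to 1.07. All 24 libraries entered a quasi-likelihood model with a mean for each of 8 groups, with Benjamini-Hochberg adjustment over all genes tested and a threshold of 0.05. The 9 comparisons were control cDC2 against control cDC1, Cre-positive against control in each subset and line, that effect in cDC2 minus that in cDC1 in each line, and transgene minus deletion line controls in each subset. Tyro3, below the filter, had a two-sided exact permutation test. All 28 pairs of replicates differed beyond sampling noise (chi-square per gene 10.1 to 51.1), so none were merged. PCR reads are not independent molecules, so floors cover counting error alone. The fit was tested on simulated counts.

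The genes and lists were chosen with earlier results of these data known. All 10 genes are described. Up to 3 passing genes per list with the smallest p, the markers that moved, and the 3 most correlated genes were named. The most correlated genes of Msr1 and 1 B cell marker are not reported here. Of the listed names, 2 (Rubcn and Trac) matched no symbol in the files. Alternatives were DESeq2 1.42.0 and its size factors, no filter or a stricter one (5 CPM in 4 libraries), the compared libraries alone, each line's controls, a block on replicate number made with the same edgeR model, and leaving out libraries.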

Additional observations from a re-analysis of the deposited data

Results flagged for a closer look

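Cd36 responded differently to the deletion in the subsets by the test of that difference, with a log2 difference (cDC2 minus cDC1) of -1.63 (adjusted p = 0.00222, edgeR). Cd36 was lower in 4 of 4 Cre-positive cDC2 libraries than in both controls, and overlapped in cDC1. In cDC1 there was little Zeb2 to lose, with a mean of 1.53 CPM in the controls.

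A single library stood far from the other 3 of its group in 5 of the 40 groups of 4 libraries that were looked at (10 genes in 4 groups). A rate of about 1 group in 20 by chance holds only for smoothly spread values. Where 3 libraries have no count, as for Tyro3 below, any count in the remaining library meets the rule. The 5 are therefore not to be set against that rate. Gas6, the TAM ligand, stood at 2.03 CPM (47 counts) in replicate 4 of the Cre-positive cDC1 of the deletion line, against 0 to 0.132 CPM in the others. Tyro3, which was not tested for want of counts, had counts in 1 library of each Cre-positive group and none in the other 3. These were 0.108 CPM in replicate 1 of cDC1 with the transgene, 0.208 CPM in replicate 2 of cDC1 with the deletion, 0.188 CPM in replicate 2 of cDC2 with the transgene and 0.464 CPM in replicate 4 of cDC2 with the deletion. Those Tyro3 values rest on 3 to 12 counts.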

How the results depend on the processing

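Of the alternative fold changes of the genes named in the comparisons, 604 kept their direction and side of the threshold, 14 reversed, 8 newly passed and 6 no longer passed; every reversed one belonged to a difference that had not passed. The number of the 9 genes called was the same or close to it in 112 alternatives and moved further in 12. Between the control subsets, the loss of Timd4 and Mertk in the transgene line alone was counted as close. In the cDC1 transgene comparison the number called went from 0 to 1 with DESeq2 and with no filter, and ranged from 0 to 1 with libraries left out. In the cDC2 transgene comparison it went from 0 to 1 with DESeq2, with no filter and with the replicate block, and for the interaction in the transgene line from 0 to 1 with the replicate block. For the cDC2 line controls it went from 1 to 2 in the compared libraries alone and to 0 with any library left out.

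Counts over all genes moved more. For cDC1 with the deletion (3 genes) DESeq2 gave 7, the compared libraries alone 1, and leaving out libraries 1 to 4. For cDC2 with the deletion (686) leaving out libraries gave 142 to 673. For cDC1 with the transgene (922) the compared libraries alone gave 550 and leaving out libraries 476 to 983. For cDC2 with the transgene (43) DESeq2 gave 119, no filter 71, the replicate block 69 and leaving out libraries 18 to 45. The interaction gave 336 with DESeq2 and 21 to 161 with libraries left out in the deletion line (142), and 475 with DESeq2, 400 with the replicate block and 138 to 335 with libraries left out in the transgene line (264). The line controls gave 53 with DESeq2, 6 alone and 8 to 12 with libraries left out in cDC1 (17), and 70 with DESeq2, 30 with no filter, 85 alone and 9 to 12 with libraries left out in cDC2 (18). The cause was not tested.

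Reversed log2 fold changes in cDC2 with the deletion were those of Axl (-0.51 with the replicate block, -0.50 without Cre-positive replicates 3 and 4, -0.0894 to 0.246 leaving out 1 library) and Lrp1 (0.0606 without those replicates, -0.345 to 0.0363 leaving out 1). In cDC1 with the deletion, leaving out 1 library gave -0.26 to 0.0132 for Cd36 and -1.76 to 1.35 for Dab2. In cDC1 with the transgene Mertk gave -0.0016 with the block and -0.27 to 1.497 leaving out 1, and in cDC2 with the transgene Dab2 gave -0.44 to 0.76.

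Replicate numbers recur across the subsets, but same-numbered libraries did not all deviate together: r was 0.0352 in the transgene controls and 0.101 to 0.111 in its Cre-positive libraries, -0.00779 in the deletion controls and 0.0764 to 0.170 in its Cre-positive libraries. With 2 controls per group, both give the same r, so it is a single value per line and weighs little against pairing. The labels do not give the numbers as pairs, and the main tests did not take them as such. All 16 of 16 Cre-positive libraries correlated best with their own number, a hint from the data and not from the design. With the replicate block Cd36 passed in cDC2 with the transgene (0.77, adjusted p = 0.0394, edgeR) and in that line's interaction (0.71, adjusted p = 0.0348).

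With 2 controls per group, differences in genes near the floor, such as Gas6, Tyro3 and, in cDC1, Msr1, Mertk and Dab2, were not resolved at this depth.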

Other observations

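Over the 24 libraries, each gene named here was set beside all other tested genes by Pearson's r of log2 CPM, as a description; the libraries share their subset, line and Cre, and the subset difference dominates most of these values. The most similar to Cd36 were Cadm1 (r = 0.993), Trap1 and Eefsec, and to Havcr2 Ero1lb (r = 0.972), Spop and Hepacam2. Lrp1 was closest to Adap1 (r = 0.984), Il1rn and Gngt2, and Axl to Pld3 (r = 0.983), the lysosomal protease gene Ctsd and Rac2. Dab2 was closest to Prune2 (r = 0.934), Timp2, an inhibitor of metalloproteases, and G6pdx, and Mertk to Abhd12 (r = 0.919), Tenm4 and Pip5k1a. Timd4 was closest to Eif2b1 (r = 0.856), Vcpkmt and Tmed2. Gas6, with few counts, had no close match (Gpat2, r = 0.675, Tln2 and Gm6583).

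Among the 10 genes themselves, Cd36 ran against Lrp1 (r = -0.944) and Msr1 (r = -0.934) over the 24 libraries, and Havcr2 against Dab2 (r = -0.940), again with both subsets in the same calculation. Relative to its cDC1 level, Cd36 in cDC2 of the transgene line was at 1.07% in the controls and 1.75% with the transgene, and Clec9a at 2.37% and 6.18%. The cDC1-defining Xcr1 was at 0.367% and 0.785% in the same groups. Cadm1 (2.36% and 2.72%), Itgae (0.141% and 0.414%), Cd8a (3.53% and 12.2%), Tlr3 (1.95% and 3.38%) and Irf8 (1.95% and 5.52%) were also higher, and Batf3 was lower (55.6% and 53.9%). For each of these markers the cDC1 level, by which the percentage is taken, was lower with the transgene (Xcr1 1141 and 827 CPM, Clec9a 259 and 203 CPM). The cDC2 level itself was lower with the transgene for Tlr3, Itgae and Batf3.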
